A study of Mus musculus with 8 samples.

Results

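The comparison described here is that of wild-type day 8 with wild-type day 4, in cultured mouse hippocampal neural stem and progenitor cells. Members are the cells of the library labelled wild type at each of these days, 3212 cells at day 8 and 3511 at day 4, or 6723 of the 30408 cells of the series. The cells were grown from the microdissected dentate gyrus of embryos of C57BL/6J females mated to Kmt2d+/βgeo males, taken at embryonic day 18 per the labels, although the study's methods give an earlier day. The wild-type embryos are Kmt2d+/+ littermates of the Kmt2d+/βgeo ones. The labels give these libraries the strain C57BL/6J and the allele wildtype. All cultures were first kept as progenitors in Neurobasal medium with EGF and FGF2. Both growth factors were then removed to start neuronal differentiation, and the days count from that removal. Day 0 cells still had the factors, and day 4 and day 8 cells had been without them for 4 and 8 days. The other 6 libraries are wild type at days 0 and 2 and cells labelled Kmt2d+/βgeo at days 0, 2, 4 and 8, and their values are given only beside those of the compared libraries. The labels do not say how many embryos or cultures went into a library. Single cells were captured in droplets, and RNA was read from its 3′ end with a molecular barcode, the UMI, that lets copies of the same captured molecule be counted once.

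EGF and FGF2 hold hippocampal progenitors in a dividing, undifferentiated state, and their removal lets the cells leave the cycle and take on neuronal or glial fates. Astrocytes, the main glial class that such progenitors form, clear glutamate and GABA from around synapses, convert glutamate to glutamine, store and export lipid on apolipoprotein E, and buffer metals and oxidants. Astrocytes under stress or cytokine signals express a further set of genes, often called reactive, that includes intermediate filaments, adhesion receptors and cytokine receptors. Progenitors and astrocytes usually carry 1 primary cilium, a microtubule-based antenna built by intraflagellar transport, whereas ependymal cells carry many motile cilia with dynein arms and radial spokes.

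With 1 library per genotype and day, no test between days was possible within wild type, and none across the genotype labels was run. A difference between days cannot be told apart from one between cultures or captures. Every interval given is a 95% interval that covers counting error only. Median total UMIs per cell were 17557 at day 4 and 14243 at day 8. Across the 8 libraries, 0.51% to 0.93% of a library's cell barcodes also occurred in another library, and wild-type day 4 and day 8 shared 2. The day 4 libraries of the 2 genotype labels were nearly alike. Their log2 ratios had a standard deviation of 0.109 over 7459 genes, and 0 genes differed by 2-fold. Kmt2d, which encodes a histone methyltransferase, had mean normalised counts of 0.237 and 0.295 in the day 4 libraries labelled wild type and Kmt2d+/βgeo, and of 0.241 and 0.290 in those of day 8. At day 0 it had 0.157 and 0.193, and at day 2 0.197 and 0.171, so that of the 4 days only day 2 had the lower mean under the Kmt2d+/βgeo label, and these values do not check the genotype labels. Whether the day 4 library labelled wild type, the baseline of every ratio, carries the right genotype label cannot be told from these values. With the other day 4 library in its place, 212 genes were higher by 2-fold at day 8 and 145 lower. RNA of the Y-linked genes Ddx3y, Eif2s3y, Kdm5d and Uty was present at both wild-type days. Markers of microglia, endothelial, mural, ependymal and choroid plexus cells had 0 rows in the matrix and were not analysed here.

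Levels are mean normalised counts per cell, where each cell was scaled to the same total of 8707.1 over the matrix genes. Genes with a mean of 0.1 or more at either day were compared, and a gene is called higher or lower where the log2 ratio of means, day 8 over day 4, was at least 1 in size, which is a 2-fold difference. Of 7578 genes compared, 227 were higher at day 8, which is 3%, and 121 were lower, which is 1.6%. The median log2 ratio was -0.06 and the standard deviation over genes 0.47, against 0.109 between the day 4 libraries. A log2 ratio above 0 was seen in 43.8% of genes. The shares of 3% higher, 1.6% lower and 43.8% above 0 are the reference for every count of list genes below. A gene with a mean under 0.1 at 1 day was compared only through its level at the other day. The filter itself favours large ratios in such genes, since they enter only where the other day is higher. The earlier steps of the wild-type course had 602 genes higher and 414 lower from day 0 to day 2 (8.08% and 5.56% of 7451 genes compared), and 224 and 182 from day 2 to day 4 (2.98% and 2.42% of 7529).

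**Figure D1:**
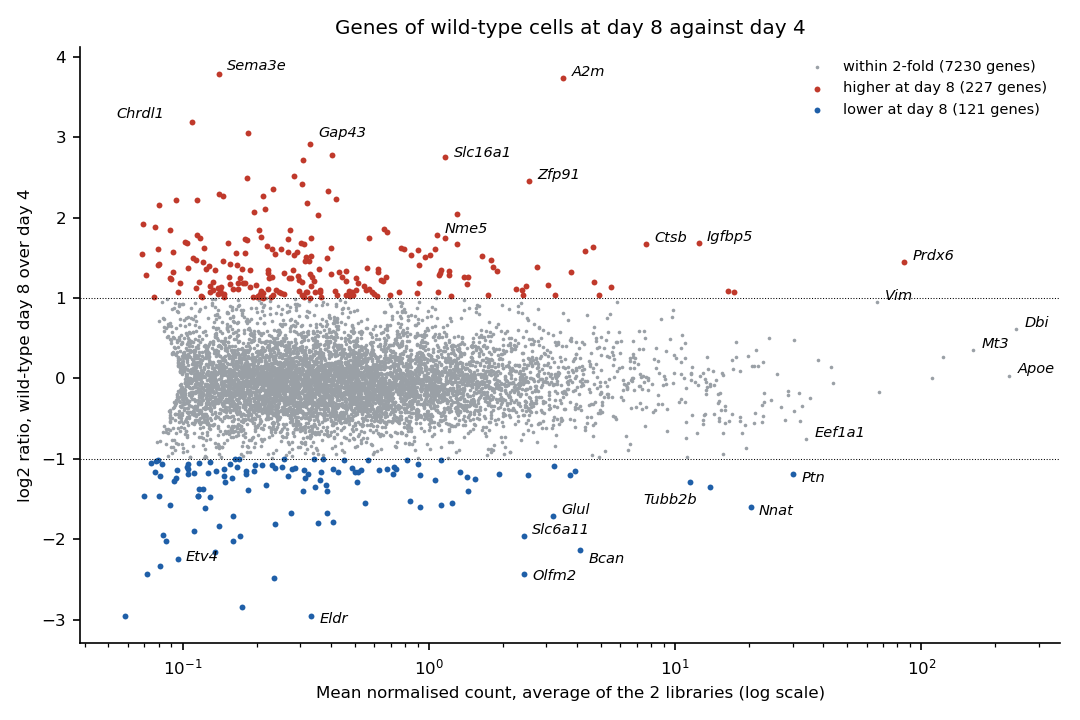
Each point is a gene, with its mean normalised count averaged over the 2 wild-type libraries on a log axis and its log2 ratio of day 8 over day 4 on the other axis. The 227 genes higher and 121 lower by 2-fold lie beyond the dotted lines, with A2m, Slc16a1 and Igfbp5 among the upper and Olfm2, Bcan and Glul among the lower ones.

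The protease inhibitor gene A2m (alpha-2-macroglobulin) had the highest ratio among genes with a mean of at least 0.5. Its wild-type means at days 0, 2, 4 and 8 were 0.117, 0.126, 0.491 and 6.54. The log2 ratio was 3.73, a 13.3-fold difference. Summed over cells, 1830 A2m UMIs at day 4 stood against 17593 at day 8, and the log2 ratio of these sums was 3.64 (interval 3.57 to 3.71). The median cell had a log2 value of 0 for A2m at day 4 and of 2.41 at day 8. The library labelled Kmt2d+/βgeo had 0.509 at day 4 and 2.14 at day 8.

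Several of the other high ratios were those of genes for transport, growth cones, complement control, matrix and adhesion. Slc16a1, the monocarboxylate transporter that carries lactate and ketone bodies, had means of 0.206, 0.172, 0.30 and 2.03 over the 4 wild-type days, a log2 ratio of 2.76 between the last pair. Gap43, a growth cone protein of axons, had 0.367, 0.0601, 0.0766 and 0.580, so that its level at day 8 was above that at day 0 after a low point at days 2 and 4. Cd59a, an inhibitor of the complement attack complex, went from 0.103 to 0.706 (log2 ratio 2.78), and Adamtsl1, a secreted matrix protein, from 0.0815 to 0.535 (2.71). Matn2, the matrix protein matrilin 2, had a log2 ratio of 2.03, Clip4, a microtubule-binding protein, 1.86, Nfasc, the adhesion protein neurofascin, 1.82, Cntn1, the adhesion protein contactin 1, 1.75, and Pltp, the phospholipid transfer protein, 1.74. For these the library labelled Kmt2d+/βgeo was also higher at day 8 than at day 4, with Nfasc at 0.309 and 3.93 and Cntn1 at 0.506 and 3.35.

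Several of the high ratios belong to rows that share sequence with a neighbour. The row named Zfp91, at chr19:12763660-12796126 on GRCm38, had means of 0.368, 0.345, 0.786 and 4.31 (log2 ratio 2.45). Its span includes the whole of Cntf, the ciliary neurotrophic factor gene, at chr19:12763660-12765632 on the same strand, and both end at the same 3′ base. With 3′-end tags, molecules of Zfp91 and Cntf therefore cannot be told apart in this row. Gm20458 (2.23) overlaps Dbndd2 (2.04) on the same strand, and the row of 4933434E20Rik with identifier ENSMUSG00000118504 (2.42) overlaps a second gene model of that name. The span of Adamtsl1 overlaps that of Sh3gl2, at chr4:85205126-85639195 on the same strand. These values are uncertain as to which gene they belong.

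In mean normalised count, the largest differences were those of highly expressed genes. Dbi, an acyl-CoA and diazepam binding protein, had 38.1, 54.7, 191 and 293. Prdx6, a peroxiredoxin that reduces phospholipid peroxides, had 6.02, 18.4, 45.9 and 125 and was the only one of the 3 largest differences past 2-fold (log2 ratio 1.44). Vim, the intermediate filament vimentin, had 45.0 at day 4 and 86.6 at day 8 (0.95). Mt3, a metallothionein of brain, had 143 and 182 (0.35). Igfbp5, an IGF-binding protein, had 0.567, 0.703, 5.93 and 19 (1.68), and its median cell went from a log2 value of 2.18 to 4.08. Tmsb4x, Gpx4, Ecrg4, Gpm6b and Gnas complete the 10 largest rises in mean.

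**Figure D2:**
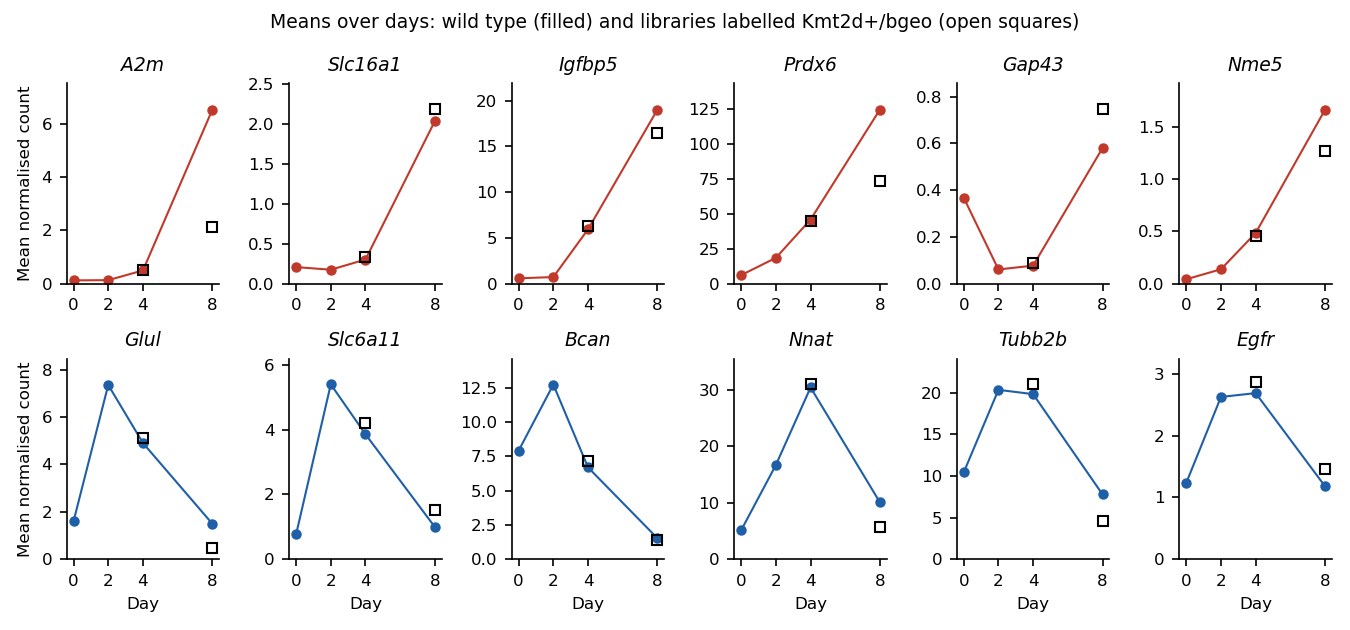
Mean normalised counts of 12 genes at days 0, 2, 4 and 8 are shown for wild type as joined filled points and, at days 4 and 8, for the libraries labelled Kmt2d+/βgeo as open squares. A2m stayed near 0 until day 4 and reached 6.54 at day 8, while Glul, Slc6a11 and Bcan were highest at day 2 and had means of 1.49, 0.992 and 1.52 at day 8.

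Several genes for clearing neurotransmitters were lower at day 8. Of 6 amino acid neurotransmitter transporters compared, 3 were lower, against 1.6% of all genes, and 0 higher, with a median log2 ratio of -0.79. This family was taken whole after values were seen, so its count and median are a description only. Slc6a11, the GABA transporter GAT3 of astrocytes, had wild-type means of 0.763, 5.41, 3.86 and 0.992, a log2 ratio of -1.96 from day 4 to day 8. Slc1a2, the main glutamate transporter of mature astrocytes, had 0.721, 3.95, 3.53 and 1.53 (-1.20). The glycine transporter gene Slc6a9 had 0.169 and 0.0614 at days 4 and 8 (-1.46). The other glutamate transporter of astrocytes, Slc1a3, had 14.2 and 12.4 (-0.19). Glul, the glutamine synthetase that acts on glutamate taken up by these transporters, had 1.6, 7.35, 4.90 and 1.49 (-1.72). The same genes in the libraries labelled Kmt2d+/βgeo were 4.23 and 1.52 for Slc6a11, 3.75 and 2.08 for Slc1a2, and 5.10 and 0.451 for Glul, at days 4 and 8.

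The wider list of mature astrocyte functions had a median close to that of all genes. Of its 31 genes compared, 3 were lower, 1 was higher and the median log2 ratio was -0.14, against -0.06 over all genes. The gene that was higher is Cd44, which is also on the list of reactive astrocyte genes described next. Cst3, the protease inhibitor cystatin C, had means of 110 and 111 (0.01). Kcnj10, the potassium channel Kir4.1, had 0.79 and 0.49 (-0.69), and Aldh1l1, the folate enzyme used as an astrocyte marker, had 1.47 and 0.991 (-0.57). Gja1, which encodes the gap junction protein connexin 43, had 2.21 and 3.41 (0.63). From the separate list of astrocyte markers, Apoe, the lipid carrier, had 224 and 230 (0.04), and the glial transcription factor gene Sox9 had 3.97 and 6.91 (0.80).

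Genes on a list of reactive astrocyte genes had ratios above 0, and some were past 2-fold. The list had 32 genes, of which only 7 were in the matrix. All 7 had a log2 ratio above 0, 4 were past 2-fold, and the median was 1.33. Over all genes 43.8% had a ratio above 0 and 3% were higher by 2-fold. Cd44, a hyaluronan receptor, had wild-type means of 0.328, 0.483, 0.263 and 0.662 (1.33). Cd109, an inhibitor of TGF beta signalling, had 0.257, 0.260, 0.392 and 1.19 (1.6). Osmr, a receptor subunit for oncostatin M, had 0.00876, 0.0350, 0.119 and 0.429 (1.85). Ggta1, a galactosyltransferase, had 0.0333 and 0.156 at days 4 and 8 (2.22), a low level. Ggta1 was compared only through its day 8 level, so the filter favours its high ratio. Gfap, the filament most used to mark astrocytes, was not analysed here.

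Genes against oxidative damage had ratios mostly above 0, few of them past 2-fold. Of 22 genes for oxidative stress and glutathione, 19 had a log2 ratio above 0, against 43.8% of all genes, and the median was 0.37. By 2-fold 3 were higher, against 3% of all genes, and 0 lower. Besides Prdx6, these were Nqo1, a quinone reductase, with 0.311 and 0.807 (1.38), and Gpx4, which reduces lipid peroxides, with 11.2 and 23.6 (1.08). Below 2-fold were Gsta4, a glutathione transferase that acts on products of lipid peroxidation, with 3.95 and 6.64 (0.75), and Mgst1, a membrane glutathione transferase, with 6.57 and 10.99 (0.74). The summed mean of the list was 75.2, 90.3, 137 and 247 over the 4 wild-type days, and without Prdx6 it was 69.2, 71.9, 91.5 and 122. In the list of metal binding and iron genes, 2 of 7 were higher, Tfrc, the transferrin receptor, at 0.389 and 0.807 (1.05), and Slc39a14, a zinc and iron importer, at 0.140 and 0.282 (1.0), whereas Mt2, a metallothionein, had 38.3 and 32.3 (-0.25).

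Genes of ciliary families had ratios mostly above 0, most of them within 2-fold. The families were taken whole by symbol after the values were seen, from intraflagellar transport, BBSome, dynein arm, radial spoke, tectonic and cilia and flagella associated proteins. Of 47 in the matrix 37 were compared, and 33 of these had a log2 ratio above 0, against 43.8% of all genes. Higher by 2-fold were 6, against 3% of all genes, with 0 lower and a median of 0.46. Among the 6 were Drc1, of the nexin-dynein regulatory complex (0.0952 to 0.321, 1.76), Cfap54 (0.0704 to 0.185, 1.40) and Cfap69 (0.0598 to 0.136, 1.18). These had means under 0.1 at day 4 and were compared only through their day 8 level, so the filter itself favours their high ratios. The others were Tctn2, of the ciliary transition zone (1.13), Ift80, of intraflagellar transport (1.08), and Cfap97d2 (1.01). The 4 genes with a ratio below 0 were Rsph3a, Rsph3b, Ift27 and Ift74, the lowest at -0.16. Summed means of the families were 11.7, 12.2, 16.2 and 21.2 over the 4 wild-type days.

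Further genes known from motile cilia and sperm flagella were picked because their values had been seen to be high, so their ratios are a description only. Nme5, of the radial spoke, had 0.0404, 0.137, 0.484 and 1.67 (1.78). Riiad1 had 0.0147, 0.0269, 0.129 and 0.649 (2.34), and Spaca9 0.0330 and 0.122 at days 4 and 8 (1.88). Iqub had a log2 ratio of 1.74, Dynlrb2, a dynein light chain, 1.61, Enkur 1.52, Wdr78, of the axonemal dynein, 1.36, Pih1d2, of dynein assembly, 1.31, Meig1 1.28, Iqcg 1.25 and Mns1 1.08. The transcription factor genes Rfx2, Rfx3 and Rfx4, of the family that binds X-box sites in promoters of ciliary genes, had 0.126 and 0.227 (0.85), 0.899 and 1.29 (0.52), and 1.79 and 2.23 (0.31). Foxj1, which drives motile ciliogenesis, was not analysed here.

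RFX factors recognise a short inverted repeat whose half-site is GTTGCC, and promoters were searched for it. Whether RFX factors bear on the differences between days was not tested. This motif, its letters and the genes shown were chosen after the values were seen. RefSeq promoter windows on GRCm38.p6, from 250 bases before to 50 after the first listed start of each gene, were matched by symbol for 6092 of the 7578 genes compared. GTTGCC on either strand was present in 12.2% of them. It was present in 20.3% of 172 windows of genes higher at day 8, in 12.5% of 88 windows of genes lower, and in 54.8% of the 31 windows of ciliary families. The windows of genes higher include those of the ciliary genes past 2-fold. Of the 31 family windows 17 held GTTGCC, most of them of genes within 2-fold. Of the 4 family genes past 2-fold with a window, 3 held it, and Cfap69 did not. Of 8 further genes with a window, 5 held it, and Iqub, Pih1d2 and Meig1 did not. The following stretches of 60 bases show it for the 3 family genes and 3 of the further genes, each read 5′ to 3′ on the gene's strand, with the half-site in capitals as GTTGCC or, on the other strand, as GGCAAC.
Drc1, chr5:30281355-30281414, plus strand: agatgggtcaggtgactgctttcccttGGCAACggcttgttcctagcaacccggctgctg
Tctn2, chr5:124598735-124598794, plus strand: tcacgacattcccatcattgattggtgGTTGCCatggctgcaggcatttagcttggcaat
Cfap97d2, chr8:13705843-13705902, plus strand: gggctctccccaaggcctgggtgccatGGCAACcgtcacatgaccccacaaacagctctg
Spaca9, chr2:28699723-28699782, minus strand: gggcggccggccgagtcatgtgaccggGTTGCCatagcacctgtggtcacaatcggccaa
Dynlrb2, chr8:116504937-116504996, plus strand: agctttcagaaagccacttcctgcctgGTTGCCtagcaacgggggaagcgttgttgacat
Enkur, chr2:21205367-21205426, minus strand: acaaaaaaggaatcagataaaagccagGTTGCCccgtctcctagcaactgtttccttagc
The match begins 11 bases before the annotated start in Drc1, 19 in Cfap97d2, 34 in Enkur, 51 in Dynlrb2 and 104 in Spaca9, whereas in Tctn2 it begins 13 bases after the start. A match of 6 letters describes the window and does not show that a factor binds there. For comparison, the letters CCAAT, of the CCAAT box, were in 38.2% of all windows, in 38.4% of those of genes higher, in 36.4% of those of genes lower, and in 61.3% of those of ciliary families, with 3 of the same 4 family genes holding it. CACGTG, the E-box, was in 10.6%, 8.72%, 4.55% and 12.9%.

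Ciliary UMIs were counted per cell after each cell was thinned to 3000 UMIs, which left out 0 cells at day 4 and 4 at day 8. The mean number of UMIs from the 47 family genes was 4.03, 4.21, 5.6 and 7.24 at wild-type days 0, 2, 4 and 8. Cells with 5 or more made up 63.4% (61.8 to 65.0) at day 4 and 81.5% (80.1 to 82.8) at day 8. The 10th percentile was 3 UMIs at both days, while the median was 5 at day 4 and 7 at day 8, and the 90th percentile 9 and 11. The library labelled Kmt2d+/βgeo had means of 5.70 at day 4 and 6.44 at day 8, after 765 of its day 8 cells, or 25.8%, had been left out as too shallow.

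**Figure D3:**
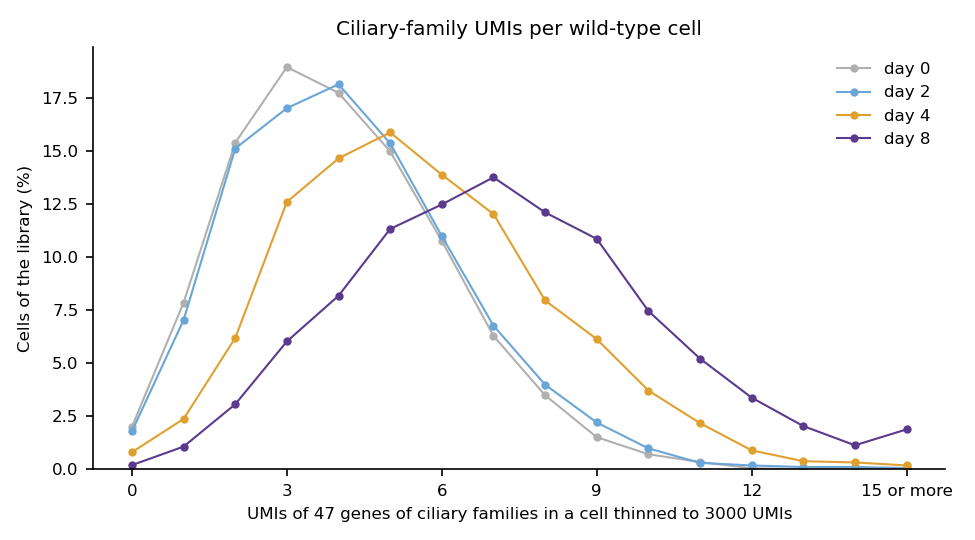
Lines give, for each wild-type day, the percentage of cells with a given number of UMIs from the 47 genes of ciliary families, after thinning to 3000 UMIs per cell. Days 0 and 2 nearly coincide, and the lines for days 4 and 8 lie to the right of them with medians of 5 and 7 UMIs.

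Genes of growth factor signalling were mostly close to or below their day 4 level, with 1 ligand gene higher. Of 17 genes for EGF and FGF signalling and its feedback, 3 were lower and 1 was higher, against 1.6% and 3% of all genes. The median log2 ratio was -0.18. Egfr, the EGF receptor, had wild-type means of 1.23, 2.63, 2.69 and 1.18 (-1.19). Etv4 and Etv5, transcription factor genes induced by FGF signalling, had 1.13, 1.52, 0.157 and 0.0333 (-2.24) and 3.6, 2.35, 0.346 and 0.172 (-1.0), so that both had already been far lower at day 4 than at day 2. Fgf2, the growth factor that had been withdrawn from the medium, had 0.0227, 0.0467, 0.0550 and 0.310 (2.49), from 198 UMIs at day 4 and 855 at day 8. Its level in the libraries labelled Kmt2d+/βgeo was 0.0528 and 0.296. Eldr, a long noncoding RNA gene at chr11:16935154-16951282, near Egfr at chr11:16752203-16918158, had the lowest ratio among genes with a mean of at least 0.5, with 0.588 and 0.0756 (-2.96). In the Notch pathway 1 of 9 genes was lower, Notch3, a Notch receptor, at 0.147 and 0.0643 (-1.19), and in the TGF beta and BMP, WNT and hedgehog pathways 0 of 16, 15 and 5 were past 2-fold.

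Ribosomal and translation genes had ratios mostly below 0, nearly all within 2-fold. Of 44 cytosolic ribosomal protein genes compared, 42 had a log2 ratio below 0, the median was -0.45 and 1 was lower by 2-fold. That gene was Rps26, with 39.4, 23.3, 16.3 and 6.66 (-1.29), and 14.1 and 9.01 in the day 4 and day 8 libraries labelled Kmt2d+/βgeo. Ribosomal protein genes have many processed copies, among which counting can split molecules. Translation factors had a median of -0.38 over 41 genes, with 0 past 2-fold and Eef1a1, the elongation factor that delivers tRNA, at 145, 125, 42.9 and 25.4 (-0.76). The summed mean of the ribosomal proteins was 1664, 1159, 828.5 and 640 over the 4 wild-type days, and that of the translation factors 263, 226, 120 and 85.9. Histone methylation enzymes, the class to which Kmt2d belongs, had a median of -0.32 over 35 genes, 31 of them below 0 and 0 past 2-fold. Over all genes 43.8% had a ratio above 0.

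**Figure D4:**
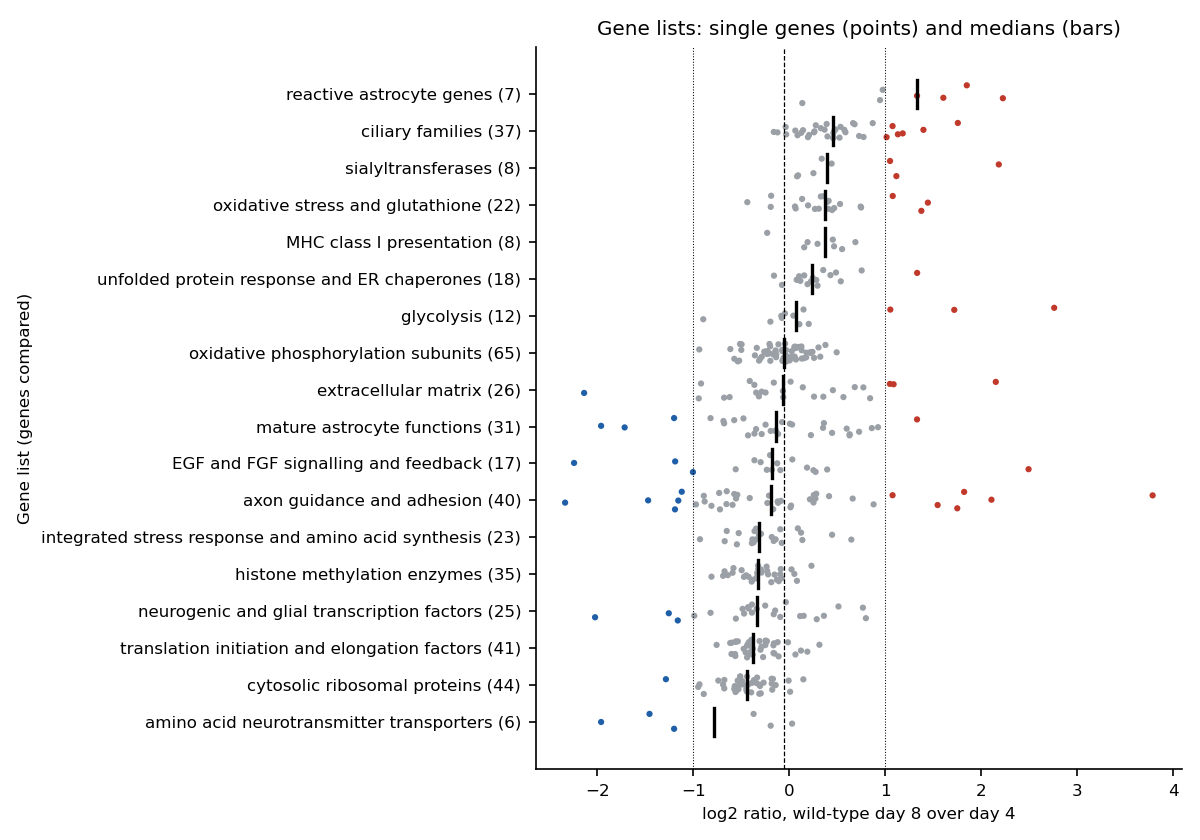
Points are single genes of 18 lists by their log2 ratio, wild-type day 8 over day 4, with vertical bars for list medians, dotted lines at 2-fold and a dashed line at the median of all genes. Reactive astrocyte genes have the highest median of the lists drawn (1.33), amino acid neurotransmitter transporters the lowest (-0.79), and ribosomal proteins form a tight group around -0.45. The transporters, ciliary families and sialyltransferases were added after values were seen.

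Genes of the neuronal and perineuronal surface lay on both sides. Of 40 axon guidance and adhesion genes, 6 were higher and 5 lower, against 3% and 1.6% of all genes. The median log2 ratio was -0.19, or -0.12 in cells with a log2 Apoe value of at least 5. The repellent Sema3e had 0.0190 and 0.262 (3.78), from 67 UMIs at day 4 and 694 at day 8, and the receptor Ephb2 had 0.0817 and 0.352 (2.11). Lower were Sema5a, a guidance cue, at 0.135 and 0.0266 (-2.34), Opcml, an adhesion protein, at 0.191 and 0.0688 (-1.47), and the Eph receptor gene Epha4 at 0.449 and 0.197 (-1.19). Sema3e and Ephb2 had means under 0.1 at day 4, and Sema5a and Opcml at day 8, so the filter favours large ratios for them. Bcan, the proteoglycan brevican of the brain matrix, had 7.91, 12.7, 6.69 and 1.52 (-2.14), and was the only one of 26 extracellular matrix genes that was lower by 2-fold. Higher in that list were Col5a1 (2.15), Col4a5 (1.09) and Lama5 (1.05), chains of collagens and laminin. Col5a1 and Lama5 had day 4 means of 0.0296 and 0.0904 and were compared only through day 8, so the filter favours their high ratios. Cspg5, another proteoglycan of brain, had 4.36 and 2.06 (-1.08), and the related phosphatase Ptprz1 14.85 and 7.57 (-0.97). Its ligand gene Ptn, which encodes the growth factor pleiotrophin, had 40.9, 69.3, 41.9 and 18.4 (-1.19), which was the largest fall in mean normalised count.

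Further low ratios and large falls in mean were those of the following genes. Nnat, an imprinted gene that encodes the membrane protein neuronatin, had 5.12, 16.7, 30.4 and 10.1 (-1.6), and its median cell went from a log2 value of 4.55 to 3.05. It was the only one of 8 imprinted genes lower by 2-fold, and the 7 others had ratios above 0. Tubb2b, a tubulin of immature neurons and progenitors, had 10.4, 20.4, 19.8 and 7.79 (-1.35), and Marcks, an actin-regulating membrane protein, 25.1 and 13.8 (-0.86). Olfm2, a secreted olfactomedin protein, had 4.01, 3.30, 4.12 and 0.766 (-2.43), Fscn1, the actin bundler fascin, 1.39 and 0.459 (-1.59), and Draxin, a guidance protein, 1.25 and 0.433 (-1.53). Ttyh3 (-1.57), Enpp2, which makes lysophosphatidic acid (-1.55), Nell2, a secreted neural protein (-1.68), Kcnmb4, a potassium channel subunit (-1.79), Rnaseh2b, of ribonuclease H2 (-1.78), Lmo3 (-1.40) and the noncoding RNA gene Gm3764 (-1.55) also stood among the 15 lowest ratios of genes with a mean of at least 0.5. Map1b, a microtubule-associated protein, went the other way, with 1.66, 0.60, 1.01 and 2.63 (1.39), and Nrxn3, a presynaptic adhesion protein, had 0.0804 and 0.179 (1.15).

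Transcription factors of neurogenesis and gliogenesis had a median log2 ratio of -0.34 over 25 genes, with 3 lower and 0 higher. These were Myt1, of neuronal and oligodendrocyte precursors (-2.02), Olig2, of the oligodendrocyte lineage, at 8.09, 6.36, 2.18 and 0.911 (-1.26), and Tox3 (-1.16). Chd7, a chromatin remodeller of progenitors, had 1.49 and 0.624 (-1.26). Bdnf, a neurotrophin, had 0.368 and 0.105 (-1.82), and Bmper, which binds BMP, 0.307 and 0.0428 (-2.84). Of the neuron markers only Map2 (3.84 and 3.50, -0.13) and Rbfox3 (0.176 and 0.0472, -1.90) were in the matrix, so that the list says little of neuronal fate. The 4 progenitor markers in the matrix had a median log2 ratio of 0.39. Vim, an intermediate filament gene, had 45.0 and 86.6 (0.95), Prom1 0.149 and 0.369 (1.31), Fabp7 23.1 and 15.5 (-0.57), and Pax6 0.432 and 0.386 (-0.16).

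In glycolysis 3 of 12 genes were higher, against 3% of all genes, and 0 lower, with a median log2 ratio of 0.07. Beside Slc16a1, these were Slc2a1, the glucose transporter GLUT1, at 0.167 and 0.347 (1.05), and Pfkp, a phosphofructokinase, at 0.0855 and 0.281 (1.72), both at low levels. Slc2a1 was no longer past 2-fold with the other day 4 library, after thinning, or as a ratio of summed counts (0.95). Eno1, an enolase, had 6.73 and 3.62 (-0.90). Pdk4, which restrains entry of pyruvate into the citric acid cycle, had 0.0763 and 0.193 (1.34), as the only one of 18 genes of fatty acid oxidation and ketone bodies past 2-fold. Oxidative phosphorylation subunits had a median of -0.06 over 65 genes, against -0.06 over all genes, and 0 past 2-fold. Cholesterol synthesis genes (17, median 0.13) and fatty acid synthesis genes (12, -0.14) also had 0 past 2-fold.

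Lysosomal, surface glycan and secretory lists are given beside the 3% of all genes that were higher. The lysosome list, with 2 of 34, and the unfolded protein response list, with 1 of 18, were near that share. Ctsb, the protease cathepsin B, had 2.26, 4.59, 3.66 and 11.6 (1.67), and Lamp2, a lysosomal membrane protein, 1.58 and 3.25 (1.04), as the 2 of 34 lysosome genes past 2-fold, whose median was 0.03 and of which 18 had a ratio above 0. All 8 sialyltransferases compared had a ratio above 0 and 3 were past 2-fold. St3gal5, which makes the ganglioside GM3, had 0.0692, 0.0586, 0.116 and 0.525 (2.18), St3gal6 had 0.361 and 0.782 (1.12), and St3gal1 0.134 and 0.277 (1.05). Among heparan sulphate genes, 3 of 14 were higher, the syndecan gene Sdc4 at 2.15 and 5.38 (1.32), and the sulphatase genes Sulf2 at 1.08 and 2.71 (1.34) and Sulf1 at 0.173 and 0.417 (1.27). Both families were taken whole after values were seen. Pdia4, a disulphide isomerase of the endoplasmic reticulum, had 0.686 and 1.73 (1.33) and was the only 1 past 2-fold of 18 genes for the unfolded protein response and chaperones, of which 16 had a ratio above 0, with a median of 0.23. Of the IGF-binding proteins, also taken whole after values were seen, Igfbp5 and Igfbp7 were higher (1.68 and 1.73), while Igfbp2 and Igfbp3 had ratios of -0.45 and -0.20.

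Immune and stress lists had few genes past 2-fold, as had all genes, of which 3% were higher and 1.6% lower. MHC class I presentation genes had a median log2 ratio of 0.37, with 7 of 8 above 0 and 0 past 2-fold, and B2m, the light chain of MHC class I, had 1.26 and 1.84 (0.55). Interferon response genes had a median of 0.35 over 10 genes, with 0 past 2-fold. In the list of p53 targets and apoptosis, 1 of 16 genes was higher, the death receptor Fas, at 0.350 and 0.897 (1.36). Among cell-cycle inhibitors and quiescence genes, 1 of 14 was higher, Txnip, an inhibitor of thioredoxin that responds to glucose, at 0.281, 1.93, 0.624 and 1.99 (1.67). S phase genes (16, median -0.12) and G2 and M phase genes (13, median -0.11) had 0 past 2-fold, and in cells with a log2 Apoe value of at least 5 their medians were -0.30 and -0.17.

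The cells of a library were not all alike, and a small share at both days had little Apoe. With a split at a log2 Apoe value of 5, chosen after the values were seen, 217 of 3511 cells lay below it at day 4 (6.18%, 5.41 to 7.03) and 109 of 3212 at day 8 (3.39%, 2.79 to 4.08). Near the split, within 0.5, were 106 cells at day 4 and 4 at day 8. Median total UMIs were 14084 and 11895 in the cells below the split and 17720 and 14300 in those above. A UMI of Olig2 was seen in 96.3% and 94.5% of cells below the split and in 42.9% and 20.9% of those above it, at days 4 and 8. Leading genes of the cells below it were Dcc, Elavl3, Lhfpl3 and Myt1 at day 4 and Myt1, Dscaml1, Dcc and Pcdh15 at day 8. The oligodendrocyte lineage list had only Olig2 in the matrix, so these cells were given no name.

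Within the cells above the split, 222 of 7556 genes were higher and 125 lower (2.94% and 1.65%). Of the 227 genes higher over all cells 214 were past 2-fold in these cells too, and of the 121 lower 108. Cells above the split were 3294 of 3511 at day 4 and 3103 of 3212 at day 8. The overlap was thus largely set in advance and is not a separate check. Log2 ratios there were 3.70 for A2m, 1.41 for Prdx6, 1.76 for Nme5, -1.76 for Glul, -2.21 for Bcan and -1.68 for Nnat. Olig2 differed within them as well, with 1.44 and 0.477 (-1.59), but was 13.4 and 13.3 in the cells below the split. Gap43 went from 0.50 to 4.74 below the split and from 0.0486 to 0.434 above it, Tubb2b from 27.8 to 34.0 and from 19.3 to 6.87, and Lhfpl3 from 3.56 to 8.28. Ciliary-family UMIs per thinned cell were 4.57 and 4.47 below the split, against 5.67 and 7.34 above. A UMI of Nme5 was found in 7.83% and 4.59% of cells below the split and in 35.3% and 72.2% of cells above it, and one of A2m in 2.76% and 14.7% against 26.8% and 85.0%. Shares below the split are those of shallower cells. Free RNA in the droplets was not measured, so its part in these shares is not known.

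**Figure D5:**
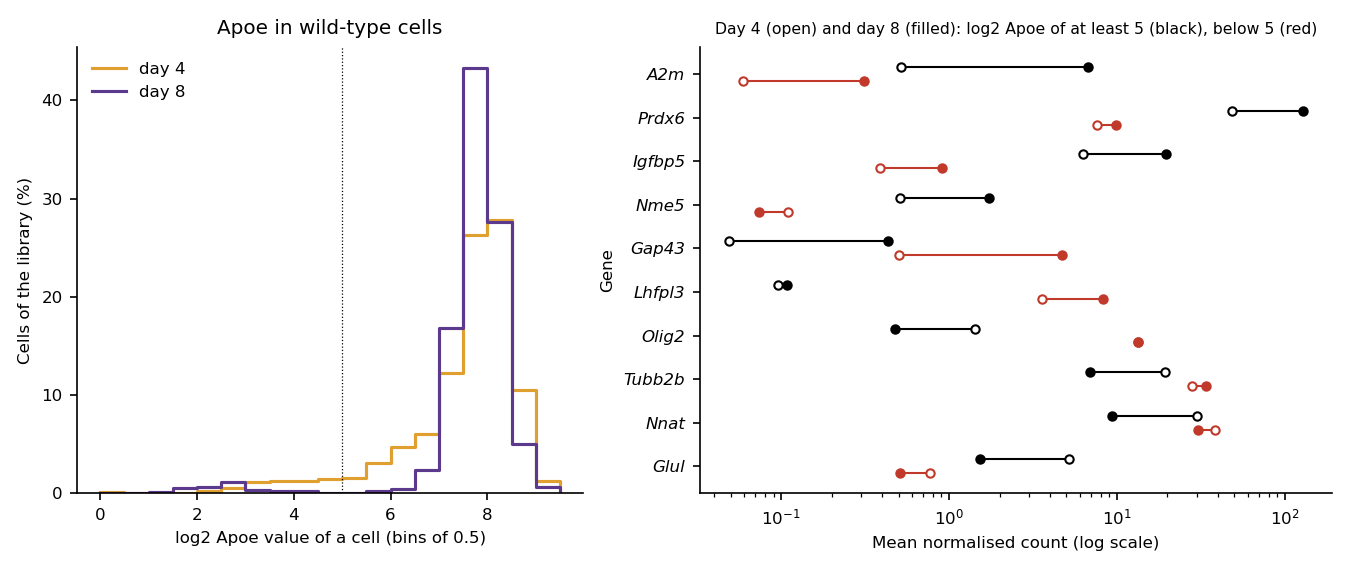
On the left, lines give the percentage of wild-type cells by log2 Apoe value in bins of 0.5 at days 4 and 8, with the split at 5 dotted. On the right, mean normalised counts on a log axis run from day 4 (open) to day 8 (filled) in cells at or above the split (black) and below it (red), and Prdx6 stayed under 10 below the split while reaching 129 above it.

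Values in the libraries labelled Kmt2d+/βgeo are set beside those of wild type, with a day 4 library that was nearly the same and a day 8 library of median depth 7926 total UMIs. From day 4 to day 8, 433 genes were higher and 572 lower there (5.6% and 7.4% of 7726 genes compared). Higher in both were 138 genes, 60.8% of the wild-type list and 31.9% of the other. Lower in both were 76 genes, 62.8% of the wild-type list and 13.3% of the other. Among the named genes, Slc16a1 (2.76 in wild type and 2.71), Gap43 (2.92 and 3.11) and Fgf2 (2.49 and 2.49) had like log2 ratios, Prdx6 (1.44 and 0.71) and A2m (3.73 and 2.07) had lower ones, and Cd44 (1.33 and 2.31) had a higher one. No test of these differences was possible with 1 library each.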

How the data were processed

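The authors quantified molecules with Alevin (Salmon 1.3.0, per the submitters' processing notes) on GRCm38, with spliced counts used as expression. Cells with few genes, or far from the median in UMIs, genes, mitochondrial fraction or doublet score, had been discarded by the authors, which covers doublets, as had mitochondrial and rarely seen genes. The authors deposited log2 values of library-size-normalised counts, for 9140 genes and 30408 cells, and an estimated count of total UMIs per cell.

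Log2 values were turned back to normalised counts (2 raised to each value, less 1) and averaged per library. The commonest value of a cell was taken as 1 UMI, and 86.8% of nonzero values then lay within 0.01 of a whole UMI. These estimated counts were rounded for sums and for thinning to 3000 UMIs without replacement. Log2 ratios of means were taken without a pseudocount. Shares have exact Clopper-Pearson and sums exact conditional intervals. Python 3 with numpy, scipy and pandas was used, and the comparison was tested on simulated data.

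Libraries were grouped by the labelled allele and day. Genes and lists were chosen with earlier results of these data known. Named genes were the 15 highest and 15 lowest ratios at a mean of at least 0.5, the 10 largest rises and falls in mean, up to 4 genes per list and direction past 2-fold, the 2 most abundant genes of lists with none, Kmt2d, Y-linked and marker genes. Others were named after their values were seen, among them the ciliary genes outside the families, Rfx2, Rfx3, Rfx4, Bdnf, Bmper, Chd7, Cspg5, Kcnj10, Eno1, B2m, Ptprz1, Gsta4, Mgst1, Lhfpl3 and the family lists of transporters, heparan sulphate genes, sialyltransferases and IGF-binding proteins.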

Additional observations from a re-analysis of the deposited data

Results flagged for a closer look

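A pair of named genes lay past 2-fold in opposite directions in the 2 genotypes, which is what drew attention to them. The log2 ratio of day 8 over day 4 for Nrxn3, a presynaptic adhesion protein, was 1.15 in wild type and -1.16 in the libraries labelled Kmt2d+/βgeo, with means of 0.0804 and 0.179 against 0.0983 and 0.0440. Both Nrxn3 means under the Kmt2d+/βgeo label lie under the minimum of 0.1, so by the rule used here Nrxn3 was not called lower there. In wild type Nrxn3 was compared only through its day 8 level. That for Sulf1, which removes sulphate from heparan sulphate, was 1.27 and -1.89, with means of 0.173 and 0.417 against 0.166 and 0.0447. At days 0 and 2 the libraries labelled Kmt2d+/βgeo had 0.0101 and 0.0206 for Nrxn3 and 0.00373 and 0.0112 for Sulf1, below their day 8 means. The falls under this label are thus seen only against its day 4 library, which was nearly the same as that of wild type. With that library as the baseline of wild-type day 8, Nrxn3 was no longer past 2-fold. With 1 library each, the difference between genotypes was not tested for either gene. Median total UMIs per cell at day 8 were 14243 in wild type and 7926 in the library labelled Kmt2d+/βgeo, and the part of depth in these values was not tested.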

How the results depend on the processing

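Genes higher and lower at day 8 numbered 227 and 121 as reported, and 210 to 279 and 105 to 164 under 8 alternatives. These were a minimum mean of 0.02, ratios of summed counts, cells thinned to 3000 UMIs, scaling without the 20 most abundant genes, centring on the median, leaving out the 5% of cells with most UMIs, the day 4 library labelled Kmt2d+/βgeo in place of the wild-type one, and, added after the data were seen, only cells with a log2 Apoe of at least 5. The last of these keeps most cells of both libraries, so its counts could differ little. A minimum mean of 0.5 gave 94 and 49, from 3412 genes in place of 7578. The difference of mean log2 values gave 12 and 7, a scale on which genes found in few cells differ less by construction. Of called genes 65.2% were higher as reported, and 59.4% to 69.7% under the alternatives. All 115 named genes past 2-fold kept their sign in the alternatives that gave them a value. Fewer stayed past 2-fold, with 18 of 115 on the difference of mean log2 values, 106 with the other day 4 library, 108 after thinning, 110 of 114 as ratios of summed counts, and 112 of 115 both when scaled without the 20 most abundant genes and when centred. With the other day 4 library those no longer past 2-fold were Cacng5, Etv5, Lama5, Lamp2, Nrxn3, Slc2a1, St3gal6, Tctn2 and Tfrc. After thinning they were Acsbg1, Gria1, Lamp2, Mns1, Padi2, Slc2a1 and Slc39a14, and as ratios of summed counts Lama5, Mns1, Slc2a1 and Slc39a14. When scaled without the 20 most abundant genes, and when centred, they were Acsbg1, Cav1 and Etv5. Of 209 medians of the 19 lists with a median of at least 0.3 in size, 207 kept their sign. The exceptions were the progenitor markers without Vim, their most abundant gene, and the IGF-binding proteins without Igfbp5. No paired analysis was possible within wild type, which has 1 library per day. The sample numbers in the titles follow the genotype label, and days were not paired across the 2 labels. With 1 library per genotype and day, leaving out a replicate could not be done. Depth limits genes at low means, such as Sema3e with 67 UMIs at day 4.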

Other observations

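A few further gene groups are given as values, with no explanation. Genes of the integrated stress response and amino acid synthesis had a median log2 ratio of -0.32 over 23 genes at wild-type day 8 against day 4, with 5 above 0 and 0 past 2-fold. Phgdh, the first enzyme of serine synthesis, had means of 4.47, 8.99, 11.3 and 7.19 at wild-type days 0, 2, 4 and 8, and of 11.5 and 2.33 at days 4 and 8 in the libraries labelled Kmt2d+/βgeo. Slc3a2, the heavy chain of amino acid exchangers, had 4.7 and 3.59 at days 4 and 8 (-0.39). Gria1, an AMPA receptor subunit, had 0.206 and 0.0891 (-1.21). Among ion channels, Piezo2, a mechanically gated channel, had 0.0595 and 0.184 (1.63), and Kcnd3, a potassium channel, 0.984 and 0.46 (-1.10).

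Low at days 0 and 2 and higher at each later wild-type day were Rida, an imine deaminase of amino acid metabolism, at 0.34, 0.688, 3.44 and 7.56, Ly6h, a surface protein of the Ly6 family, at 0.0073, 0.207, 0.816 and 1.95, and Padi2, which converts arginine to citrulline in proteins, at 0.00841, 0.0119, 0.164 and 0.34. All 3 were named after their values were seen. S100a11, a calcium-binding protein, had 0.894, 2.0, 2.27 and 7.04 (1.63). Hip1, an endocytic adaptor, ran the other way, with 6.25, 2.58, 0.728 and 0.33, as did the noncoding RNA Zfas1 after day 2, with 1.98, 2.65, 0.694 and 0.311.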
